A study of Saccharomyces cerevisiae with 27 samples.

Results

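The 10 genes described here encode the enzymes and phosphatase subunits that build, trim and control glycogen in budding yeast, followed through a shift to 41 °C. They were found by gene symbol in the probe annotation of the array, among probe sets that name 1 gene, and all 10 were measured, each by 1 probe set, among 5656 tested genes. The synthesis genes are GSY1 (YFR015C), GSY2 (YLR258W), GLG1 (YKR058W), GLG2 (YJL137C) and GLC3 (YEL011W). The breakdown genes are GPH1 (YPR160W) and GDB1 (YPR184W), and the regulatory genes are GAC1 (YOR178C), PIG1 (YLR273C) and PIG2 (YIL045W). All 27 arrays measured Saccharomyces cerevisiae of the laboratory strain X2180-1A, grown aerobically in 500 ml batch cultures on YNB medium with 2% glucose at pH 5.0. Heat cultures were brought to 41 °C within 5 min at an OD600 of 0.50 and sampled after 10, 30, 60, 120, 240 and 360 min, with 3 arrays a time. Controls were kept at 28 °C, with 3 arrays each for 0, 120 and 240 min, when the OD600 was 0.50, 0.88 and 1.5. No control at 360 min was analysed here, so the last heat time is set against the controls at 0 and at 240 min.

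Glycogen is a branched store of glucose that yeast lays down when growth slows or stress sets in. Glycogenin starts a chain by attaching glucose to itself, glycogen synthase lengthens the chain from UDP-glucose, and the branching enzyme adds side chains, while phosphorylase and the debranching enzyme take the polymer apart. Phosphorylation turns the synthase off, and the type 1 phosphatase Glc7 reverses it when a targeting subunit such as Gac1 brings it to the glycogen particle. The genes of both directions are known to be induced together in yeast by general stress.

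A signal is the deposited linear intensity after quantile normalization over the tested genes, and a log2 change is a difference of group means of log2(signal + 113.8), which understates the change of a dim gene. Array medians over the tested genes lay between 442 and 566 before normalization, and log2 values of 2 arrays of the same group correlated at 0.984 or more. An array averages over all cells of a culture, so more cells holding a transcript and more of it per cell cannot be told apart, nor can a change in the RNA content of a cell. The 5 heat shock genes HSP26, HSP42, HSP82, HSP104 and SSA4, taken as a check of the labels, were called higher at each heat time against 0 min. The non-yeast probe sets of the array, which mark background, had a mean signal of 35.4 to 74.2 on the heat arrays, against 66.2 to 81.4 on the control arrays. The 3′ to 5′ signal ratio of the array's probe sets for SRB4, a measure of RNA and labelling quality, was 2.97 to 5.62 on the heat arrays, against 1.98 to 2.81 on the control arrays. The same ratio for ACT1 was 0.947 to 1.19 on the heat arrays and 0.898 to 1.01 on the control arrays, ranges that overlap. The background and the SRB4 ratio move with temperature, and they also differ between heat times. The median background of a group was 71.3 at 10 min, 42.6 at 30 min and 35.7 at 360 min of heat. The median SRB4 ratio was 3.24, 4.29 and 4.86 at these times. The part of the SRB4 ratio in the results below was not tested.

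GSY1, GSY2, GLC3, GPH1, GDB1, GAC1 and PIG2, 7 of the 10 genes, were raised by a log2 of more than 2 within 10 min of heat. GLG1 had a log2 change of 1.84, which the offset understates for so dim a gene. Its mean signal rose 6.23-fold, against 5.69-fold for GDB1. GLG2 and PIG1 were not called at that time. Between 30 and 60 min all of the strongly raised genes fell. From 60 to 360 min GPH1, GAC1, GSY2 and GDB1 stayed raised by a log2 of 0.96 or more, though GPH1 fell further from 60 to 120 min and GDB1 from 120 to 240 min. GSY1, GLG1, GLC3 and PIG2 were within a log2 of 0.5 of the control of 0 min at the last time. For GSY1 and PIG2 this rests on the offset, since their mean signals at 360 min were 1.77 and 1.73 times those at 0 min.

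**Figure D1:**
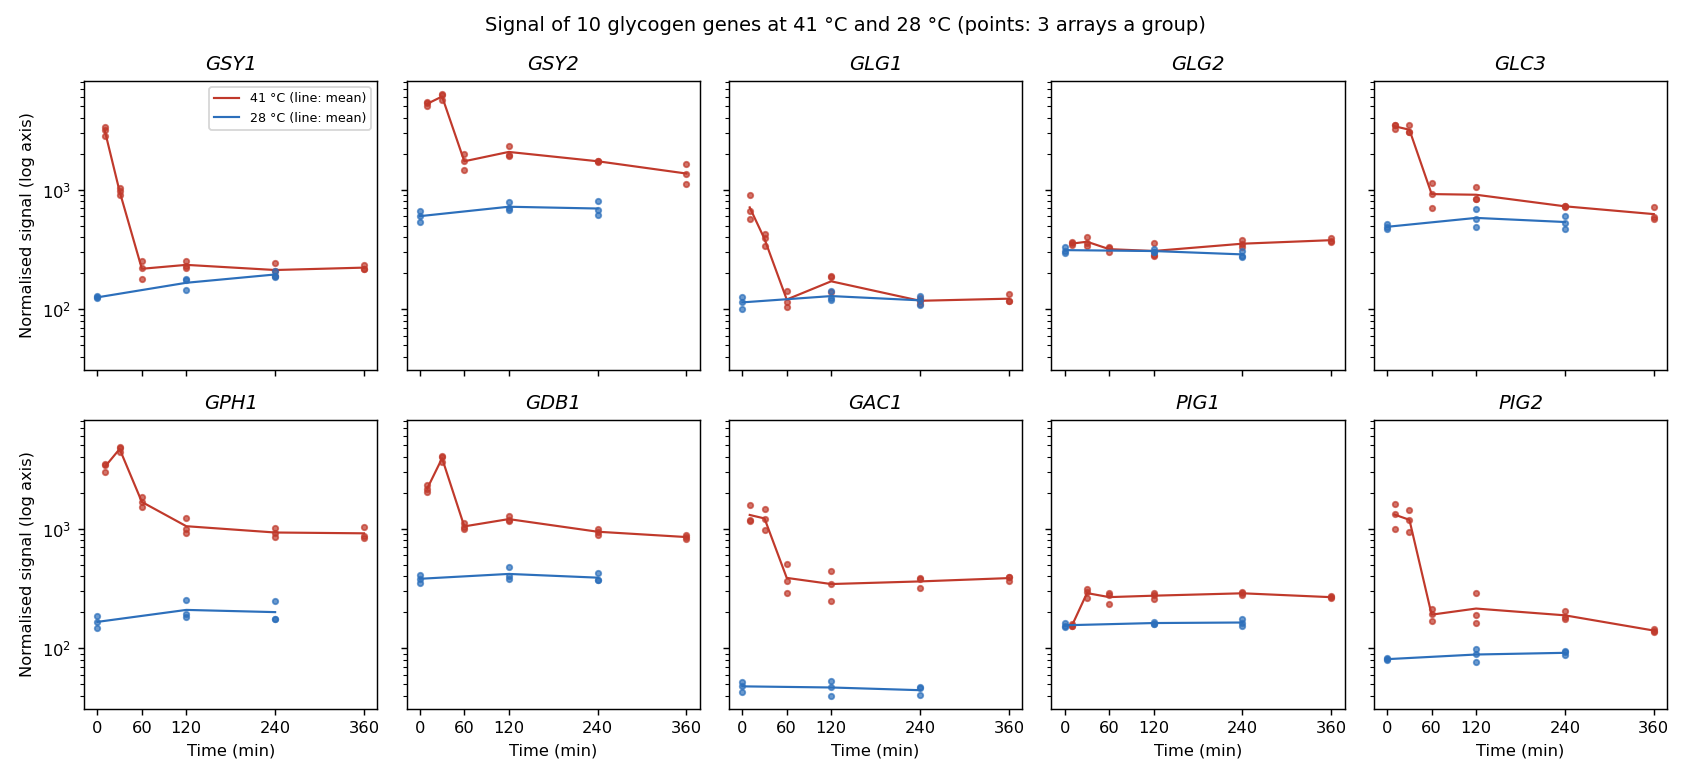
Normalised signal (log axis) of each of the 10 genes against time in min, with 41 °C in red and 28 °C in blue. Points are single arrays, 3 a group, and lines join group means. GSY1 and GLG1 peak at 10 min, GPH1 and GDB1 at 30 min, and PIG1 steps up between 10 and 30 min and stays there.

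GSY1 and GSY2 encode the 2 isoforms of glycogen synthase, of which Gsy2 is known as the major one. GSY1 had signals of 3163, 2837 and 3336 after 10 min at 41 °C and of 1035, 895 and 970 after 30 min, against 124, 128 and 126 at 28 °C and 0 min. It had 256, 179 and 220 at 60 min, 252, 232 and 223 at 120 min, 189, 208 and 242 at 240 min and 219, 218 and 233 at 360 min of heat. Every heat array lay above every control array of 0 min, and the heat times from 60 to 360 min overlapped one another. The mean signal at 10 min was 24.7 times that of the control, a log2 change of 3.75 ± 0.08 (SE; limma adjusted p = 5.06e-21), ranked 15 of all tested genes from the top. By 30 min the change against 0 min was 2.17 ± 0.08, and from 60 to 360 min it lay between 0.44 and 0.54, each past the threshold of an adjusted p of 0.05. GSY1 was under 2 times the non-yeast mean on 4 of 9 control arrays, and with that background level as a term those late changes were 0.21 to 0.30 and not called. GSY1 was also the gene of this group that moved most in the controls, where it had 188, 211 and 188 at 240 min and 179, 176 and 144 at 120 min. Its log2 change at 28 °C for 240 against 0 min was 0.37 ± 0.08 and missed the threshold (adjusted p = 0.0905), and 7 alternatives to the processing called it. Against the control of 240 min, GSY1 was not called at 240 min of heat (0.08 ± 0.08, adjusted p = 0.412), where the arrays overlap, or at 360 min (0.12 ± 0.08, adjusted p = 0.175), where they do not. The values as deposited and quantile normalization over all probe sets called both, with 0.20 in each at 240 min and 0.29 and 0.26 at 360 min, and median scaling (0.18) and a fit of only the arrays compared (0.12) also called the change at 360 min.

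GSY2 had signals of 5330, 4991 and 5377 at 10 min and 6293, 6155 and 5598 at 30 min of heat, against 607, 662 and 535 in the control at 0 min. Later heat arrays gave 1990, 1457 and 1740 at 60 min, 2320, 1968 and 1922 at 120 min, 1738, 1715 and 1738 at 240 min, and 1646, 1109 and 1341 at 360 min. No heat array reached down to a control array of any time, the highest of which was 802. Its log2 change was 2.91 ± 0.11 at 10 min and 3.10 ± 0.11 at 30 min, which did not differ past the threshold (adjusted p = 0.146). It stood at 1.04 ± 0.11 at 360 min, a mean signal 2.27 times that at 0 min (adjusted p = 5.01e-08).

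GLG1 and GLG2 encode the glycogenins. GLG1 had 663, 573 and 900 at 10 min and 396, 341 and 424 at 30 min of heat, against 115, 127 and 101 at 0 min in the control. From 60 min on its heat arrays lay between 106 and 189, within or just above the 101 to 144 of the 9 control arrays. The log2 change was 1.84 ± 0.10 at 10 min (adjusted p = 5.44e-14) and 1.13 ± 0.10 at 30 min, and at 60, 240 and 360 min it was between 0.02 and 0.05 and not called. At 120 min GLG1 was called higher, with 0.32 ± 0.10 against 0 min (adjusted p = 0.00664) and 0.23 ± 0.10 against 120 min at 28 °C (adjusted p = 0.0444), where the arrays overlap. The second of these calls was lost without replicate 1 or 3 of either group, with changes of 0.18 to 0.21. GLG1 was under 2 times the non-yeast mean on 8 of 9 control arrays, and with that background level as a term its changes from 60 min on turned negative, for example -0.53 at 60 min.

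GLG2 kept within a narrow range. Its heat arrays ranged from 277 to 401 over all times, against 276 to 334 over all control arrays, and the groups of 60 and 120 min of heat overlapped the control of 0 min. The log2 change against 0 min was 0.14 ± 0.07 at 10 min and not called (adjusted p = 0.0684), 0.17 ± 0.07 at 30 min (adjusted p = 0.0191, lost without control replicate 2 or heat replicate 1, with 0.15 or 0.12) and 0.21 ± 0.07 at 360 min (adjusted p = 0.00795). At 120 min it was -0.02 ± 0.07 and not called, and without normalization between arrays it was 0.19 and called. GLG2 had 378, 349 and 335 at 240 min and 366, 373 and 397 at 360 min of heat, against 308, 276 and 279 at 240 min in the control, without overlap. Against that later control it was called higher at 240 min (0.22 ± 0.07, adjusted p = 0.00614) and at 360 min (0.29 ± 0.07, adjusted p = 0.000466), the largest of its changes against a control, and neither was called with the background level as a term (0.19 and 0.26).

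GLC3 encodes the branching enzyme. It gave 3476, 3213 and 3487 at 10 min and 3465, 3015 and 3044 at 30 min of heat, against 485, 517 and 467 at 0 min. At 60 min it gave 1134, 708 and 916, and at 360 min 711, 570 and 594. All of these lay above the control arrays of 0 min, but those of 360 min overlapped the 529, 609 and 474 of the control at 240 min. The log2 change was 2.54 ± 0.12 at 10 min (adjusted p = 6.12e-15), 0.76 ± 0.12 at 60 min and 0.29 ± 0.12 at 360 min. That last call is marginal (adjusted p = 0.0407) and was lost under 7 of 19 alternatives. Among them were 4 of the 6 fits without 1 of the arrays, namely control replicates 1 and 3 and heat replicates 1 and 3, with changes of 0.21 to 0.32. Against 240 min at 28 °C it was 0.18 ± 0.12 (adjusted p = 0.189).

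GPH1 encodes glycogen phosphorylase, which releases glucose 1-phosphate from chain ends. Its signals were 3410, 2993 and 3465 at 10 min and 4791, 4739 and 4407 at 30 min of heat, against 165, 186 and 149 at 0 min. They were 1828, 1512 and 1685 at 60 min, 1236, 996 and 917 at 120 min, 927, 1010 and 853 at 240 min and 874, 842 and 1030 at 360 min. The lowest heat array, at 842, stood above the highest control array of any time, at 253. Leaving GAC1 aside, whose control level is not known, GPH1 had the largest log2 change of the 10 genes at 30 min, 4.09 ± 0.11 or 27.9 times the mean signal at 0 min (adjusted p = 6.46e-20), and again at each later time against 0 min. Its level was highest at 30 min, above 10 min and above 60 min past the threshold, and lower at 120 than at 60 min. The steps to 240 and 360 min did not pass it (adjusted p = 0.361 and 0.939). At 360 min its change was still 1.87 ± 0.11 against 0 min, 5.5 times the mean signal, and 1.71 ± 0.11 against 240 min at 28 °C.

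GDB1 encodes the debranching enzyme, which takes down the short branches that phosphorylase leaves. It had 2308, 2042 and 2163 at 10 min and 4048, 4003 and 3599 at 30 min of heat, against 382, 412 and 351 at 0 min. Afterwards it had 1121, 989 and 1030 at 60 min, 1269, 1164 and 1179 at 120 min, 888, 1002 and 943 at 240 min and 887, 821 and 848 at 360 min. No heat array overlapped a control array, the highest of which was 479. The log2 change was 2.21 ± 0.08 at 10 min (adjusted p = 1.25e-17) and 3.01 ± 0.08 at 30 min, and the rise between these 2 times was 0.81 ± 0.08 (adjusted p = 2.74e-09), the largest of the 10 genes in that interval. It was 0.96 ± 0.08 at 360 min, 2.23 times the signal at 0 min.

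GAC1 encodes the best known of the subunits that direct Glc7 to glycogen synthase. Heat arrays gave 1572, 1155 and 1186 at 10 min, 1469, 1211 and 976 at 30 min, 509, 292 and 364 at 60 min and 399, 398 and 363 at 360 min, against 48.7, 52.5 and 43.0 at 0 min. On all 9 control arrays GAC1 lay below the mean of the non-yeast probe sets, so its control level is not known and its fold is a lower bound. Taking that background as the control level on the deposited scale, GAC1 was at least 16.5-fold higher at 10 min, at least 15.2-fold higher at 30 min and at least 5.92-fold higher at 360 min. The fitted log2 changes, which depend on the offset, were 3.12 ± 0.15, 3.02 ± 0.15 and 1.63 ± 0.15 at those times (adjusted p = 3.8e-15, 2.53e-15 and 1.52e-09). From 60 to 360 min the heat arrays, at 249 to 509, overlapped one another between times, and no step among these times passed the threshold.

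PIG1 and PIG2 encode further Glc7-binding subunits, of which Pig1 resembles Gac1. PIG1 had 160, 155 and 154 at 10 min of heat, against 155, 151 and 162 at 0 min, and these arrays overlap. It had 263, 311 and 295 at 30 min, 235, 290 and 279 at 60 min, 281, 289 and 257 at 120 min, 279, 293 and 294 at 240 min and 272, 267 and 264 at 360 min. All heat arrays from 30 min on lay above the highest control array, at 176. The log2 change was 0.00 ± 0.05 at 10 min (adjusted p = 0.977), 0.58 ± 0.05 at 30 min (adjusted p = 5.49e-10) and 0.50 ± 0.05 at 360 min (adjusted p = 2.67e-08). No step after 30 min passed the threshold. PIG1 was the one gene of the 10 whose change at 360 min was higher than at 10 min past the threshold (0.50 ± 0.05, adjusted p = 1.51e-08). It was under 2 times the non-yeast mean on 4 control and 2 heat arrays.

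PIG2 had 1319, 1001 and 1617 at 10 min and 1194, 937 and 1432 at 30 min of heat, against 82.9, 79.2 and 81.6 at 0 min. It gave 213, 192 and 169 at 60 min and 139, 138 and 145 at 360 min. The heat arrays stayed above the controls of all times, whose highest value was 99.5. Its log2 change was 2.85 ± 0.13 at 10 min (adjusted p = 4.07e-15), 0.64 ± 0.13 at 60 min and 0.38 ± 0.13 at 360 min (adjusted p = 0.0143). PIG2 was under 2 times the non-yeast mean on all 9 control arrays, and with the background level as a term its change was 0.04 at 60 min and not called, and -0.30 at 360 min.

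Counted against 0 min at 28 °C, 8 of the 10 genes were called higher at 10 min, 10 at 30 min, 9 at both 120 and 360 min and 8 at both 60 and 240 min, and 0 were called lower at any of these times. Calls were frequent among all genes, with 72.5% of 5656 called at 10 min (33.8% higher), 80.9% at 30 min (40.7% higher) and 69.2% at 60 min (31.8% higher). The later times had 68.9% called at 120 min (32.7% higher), 63.2% at 240 min (29.0% higher) and 67.0% at 360 min (31.8% higher). The median log2 change of the 10 genes was 2.69 at 10 min and 2.58 at 30 min, against -0.04 and 0.00 for all genes. It was 0.70 at 60 min and 0.74 at 120 min, then 0.60 at 240 min and 0.50 at 360 min, when the median of all genes lay between -0.04 and -0.02. In the values as deposited, without normalization between arrays, that median moved up by 0.10 to 0.15 from 60 min on. At 10 min 8 of the 10 genes were raised by a log2 of at least 1, as were 8.06% of all genes, and at 360 min 3 of the 10 and 4.28% of all genes. All 6 comparisons share the 3 control arrays of 0 min, so their values are not independent.

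**Figure D2:**
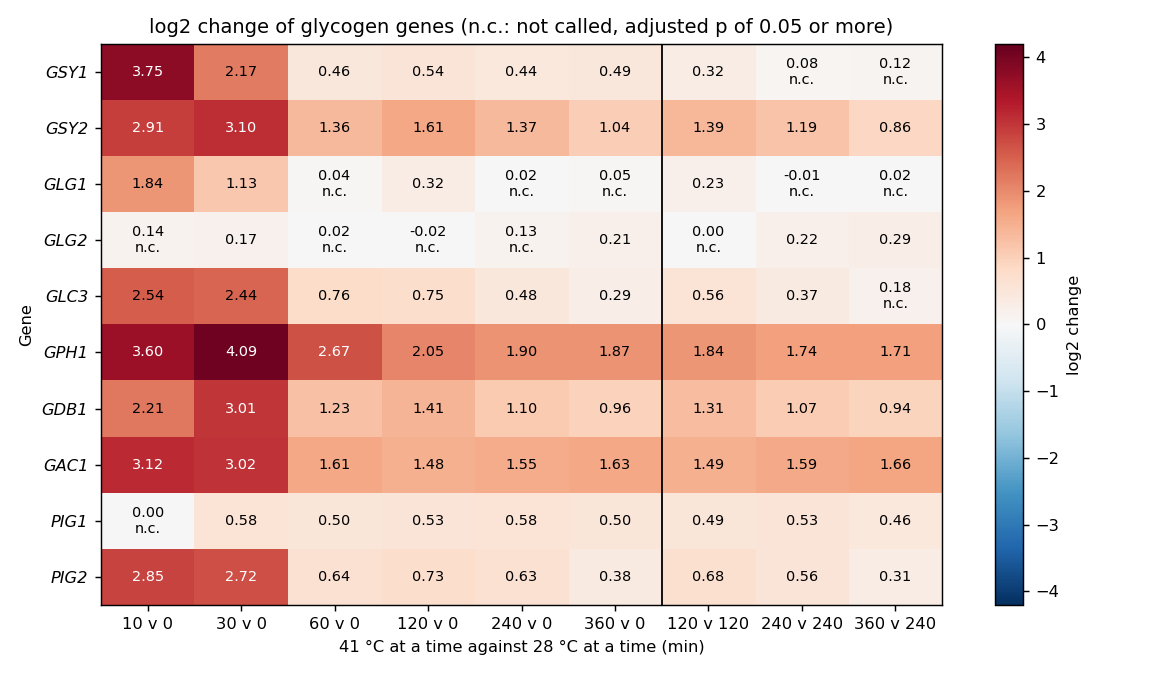
log2 change of each gene (rows) at 41 °C against 28 °C (columns, the times in min of the 2 groups compared), with n.c. for an adjusted p of 0.05 or more. GPH1 ranges from 4.09 at 30 min to 1.87 at 360 min against 0 min, and GAC1, GSY2 and GDB1 are the other genes near or above 1 in the late columns.

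The genes that stayed high were also higher than the later controls. Against 120 min at 28 °C, 9 of the 10 were called higher and 0 lower at 120 min of heat (68.9% of all genes called, 33.3% higher), with a median of 0.62. Against 240 min at 28 °C the counts were 8 higher and 0 lower at 240 min of heat (61.3% called, 28.3% higher), with a median of 0.54, and 7 higher and 0 lower at 360 min (65.8% called, 31.0% higher), with a median of 0.38. GPH1, GAC1, GSY2, GDB1 and PIG1 were called higher in all 3 of these comparisons and kept those calls under every alternative tried that measured them. Their changes at 240 min were 1.74 ± 0.11, 1.59 ± 0.15, 1.19 ± 0.11, 1.07 ± 0.08 and 0.53 ± 0.05. PIG2 was called in all 3 too, but with the background level as a term it was not called in any, with 0.06 at 120 min, -0.027 at 240 min and -0.37 at 360 min. At 360 min its call (0.31 ± 0.13, adjusted p = 0.046) was also lost in each of the 6 fits without 1 array, with changes of 0.30 to 0.32. GSY1 at 120 min (0.32 ± 0.08) was not called with that term, with 0.07. GLC3 at 240 min (0.37 ± 0.12) was not called under 2 of 19 alternatives, among them the fit without control replicate 3, with 0.30.

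The change against the control of the same time was not shown to differ between 240 and 120 min for any of the 10 genes (0 called by limma, 3 at an unadjusted p under 0.05, and GLG2 called with 0.31 without replicate 1 of 120 min of heat), while 10.6% of all genes were called in that difference. Among the controls themselves 0 of the 10 genes were called for 120 against 0 min (0.00% of all genes called), for 240 against 0 min (0.0707%) or for 240 against 120 min (0.00%). At an unadjusted p under 0.05 the numbers were 1, 1 and 0.

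Setting each heat time against the one before it shows when the levels moved. For 30 against 10 min, 3 genes were called higher and 2 lower (59.5% of all genes called, 33.5% higher and 26.0% lower). GDB1 (0.81 ± 0.08), PIG1 (0.58 ± 0.05) and GPH1 (0.49 ± 0.11) rose, while GSY1 (-1.58 ± 0.08) and GLG1 (-0.70 ± 0.10) fell. The synthesis genes GSY2 and GLC3 were not called, with 0.20 ± 0.11 and -0.09 ± 0.12. For 60 against 30 min, 9 genes were called lower and 0 higher (71.6% of all genes called, 39.4% lower), with a median of -1.55, and PIG1 (-0.08 ± 0.05) was called only without replicate 1 of 30 min, with -0.13. PIG2 changed most, with -2.08 ± 0.13, and 7 genes lay between -1.78 and -1.09. GLG2, the ninth, had -0.15 ± 0.07 (adjusted p = 0.041) and was not called under 8 alternatives, among them the values as deposited and the fits without replicate 1 or 3 of 30 min or replicate 1 or 2 of 60 min, with -0.16 to -0.10 in those 4 fits.

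Later steps were few. For 120 against 60 min, 1 gene was higher, GLG1 with 0.28 ± 0.10, and 1 lower, GPH1 with -0.63 ± 0.11 (34.0% of all genes called). For 240 against 120 min, GDB1 with -0.32 ± 0.08 and GLG1 with -0.30 ± 0.10 were lower (21.0% called). For 360 against 240 min, 0 of the 10 genes were called, and 1 had an unadjusted p under 0.05 (8.10% of all genes called). The GLG1 rise to 120 min was lost without replicate 2 or 3 of 60 min or replicate 1 or 3 of 120 min (0.23 to 0.26), and its fall to 240 min without replicate 1 or 3 of 120 min or any replicate of 240 min (-0.32 to -0.25). Without replicate 1 of 60 min, GSY2 (0.35) and GDB1 (0.23) were also called for 120 against 60 min. Without replicate 1 of 360 min, GSY2 (-0.47) was called for 360 against 240 min. At 360 against 10 min, 8 genes were lower and 1 higher (72.6% of all genes called, 37.0% lower), with a median of -1.76. GSY1 had the lowest log2 change of all 5656 genes in that comparison, -3.26 ± 0.08. At 360 against 30 min, 8 genes were lower and 0 higher (77.7% called, 42.1% lower), with a median of -1.86, and GLG2 and PIG1 were not called, though PIG1 (-0.08 ± 0.05) was without replicate 1 of 30 min, with -0.13. The share of higher among all genes called in these steps depended on the scaling. In the values as deposited it was 61.6% in place of 45.0% for 60 against 30 min, 67.1% in place of 53.9% for 120 against 60 min, 32.6% in place of 47.8% for 240 against 120 min and 64.2% in place of 48.3% for 360 against 240 min. For 360 min it was 64.8% in place of 49.1% against 10 min and 61.3% in place of 45.8% against 30 min, where the median log2 change of all genes moved by 0.16 and 0.19.

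**Figure D3:**
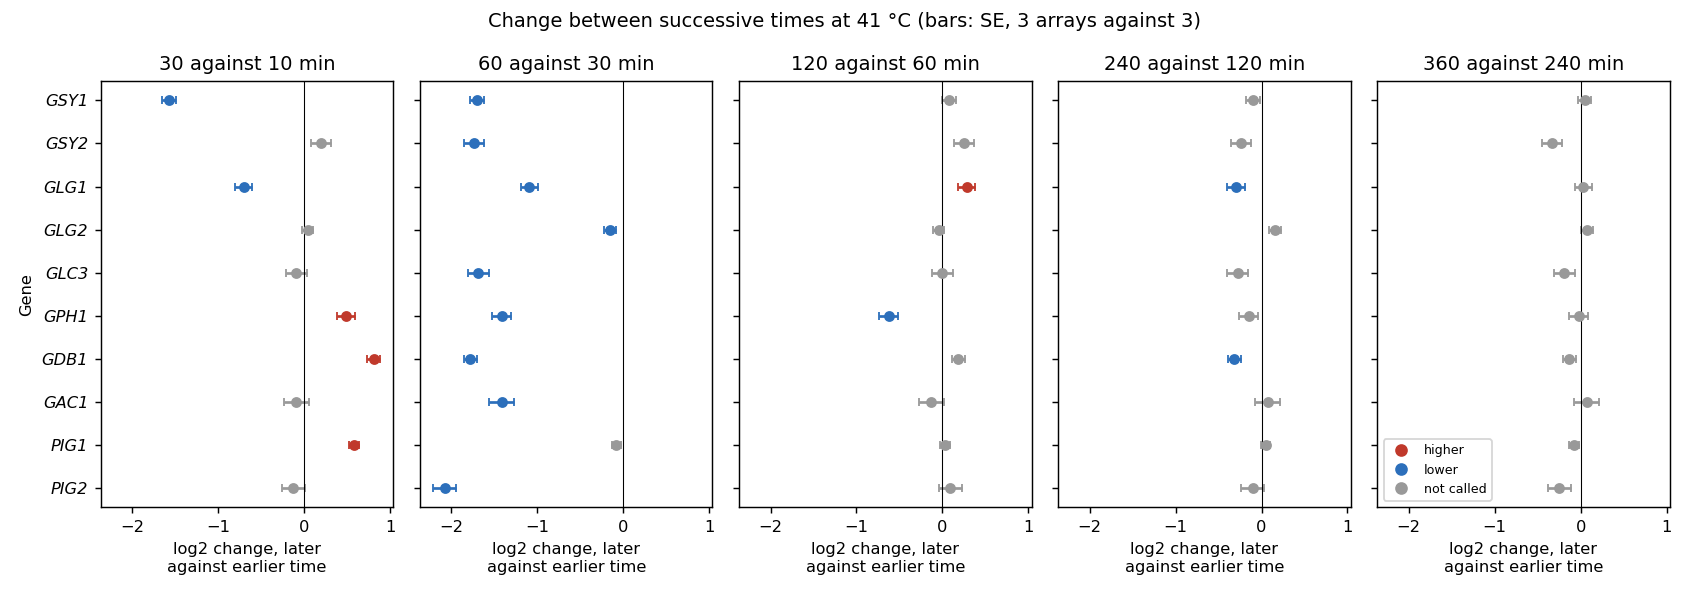
log2 change (x axis) of each gene between a heat time and the one before it, with bars for the SE and 3 arrays against 3 in each panel. Red points were called higher, blue lower and grey not called. In the panel for 60 against 30 min, 9 of the 10 genes are blue, and in that for 360 against 240 min all 10 are grey.

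Related genes took different courses. The per-array difference of the log2 values of 2 genes was set against its mean at 0 min, which removes their difference in the control. The offset still shrinks the changes of a dim gene more than those of a bright one. The changes of the 2 synthases swapped order after 10 min: GSY1 minus GSY2 was 0.84 at 10 min, -0.93 at 30 min and -0.55 at 360 min. The levels did not swap, since the mean signal of GSY2 was above that of GSY1 in every group (5233 against 3112 at 10 min). At each of the 6 heat times the heat arrays did not overlap those of 0 min. For the glycogenins the change of GLG1 was above that of GLG2 by 1.70 at 10 min, 0.96 at 30 min and 0.34 at 120 min without overlap, and at 60, 240 and 360 min the arrays overlapped. GAC1 minus PIG1 was above its control values at all 6 times, again without overlap, and no size is given because the control level of GAC1 is not known. PIG1 minus PIG2 was -2.85 at 10 min, -2.14 at 30 min and 0.12 at 360 min without overlap, and at 60, 120 and 240 min the arrays overlapped. The 0.12 rests on the offset, since at 360 min the mean signals of PIG1 and PIG2 had risen 1.72-fold and 1.73-fold. PIG2 was under 2 times the non-yeast mean on all 9 control arrays. Its control level is therefore poorly known, and the sizes that involve PIG2 are uncertain. An exact permutation test of 3 against 3 arrays cannot go below a two-sided p of 0.1, the value of every difference without overlap (0.133 adjusted over 24 tests), so none can pass the threshold. The sizes depend on the offset: with an offset of 20 or 250 the difference between GSY1 and GSY2 at 10 min was 1.34 or 0.47.

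**Figure D4:**
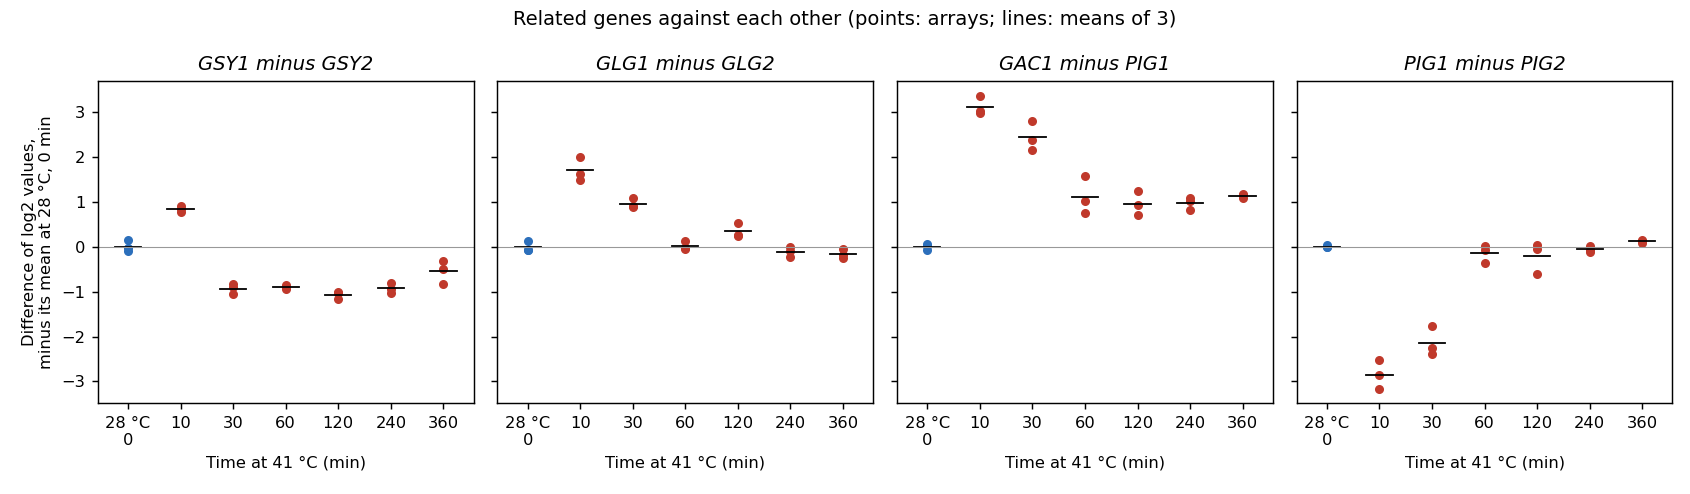
Difference of the log2 values of 2 related genes on each array (y axis), minus its mean at 28 °C and 0 min, for that control (blue) and the 6 heat times (red), with 3 points a group and a line at their mean. GSY1 minus GSY2 is above 0 at 10 min, with a mean of 0.84, and below 0 at all later times.

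The shapes of the courses were also compared over the 9 group means, as a description of these groups, which share arrays and normalization. GLC3 and PIG2 ran most alike (r = 0.996), followed by GSY1 and GLG1 (0.988), GSY2 and GDB1 (0.986) and GPH1 and GAC1 (0.982). PIG1 correlated at 0.54 or less with each of the other genes. Among the 2218 genes outside the group whose means spanned a log2 of at least 1, those most like GSY2 were YER079W, JID1 and ROQ1, each at 0.994. The most like GPH1 were YPC1, NEM1 and PHM8 (0.998, 0.995 and 0.995), and the most like GAC1 were YLR177W, PIN3 and EDC2 (all 0.995). For PIG1 they were YOL036W (0.991), TIS11 (0.975) and YPR127W (0.973).

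Genes that supply UDP-glucose split by isoform. Of 6, 4 were called higher and 0 lower at 10 min, and 4 higher and 2 lower at 30 and at 360 min, all against 0 min, where 72.5%, 80.9% and 67.0% of all genes were called at 10, 30 and 360 min (33.8%, 40.7% and 31.8% higher). PGM2, the major phosphoglucomutase, had 5968, 4871 and 5987 at 10 min and 2302, 1955 and 2327 at 360 min of heat, against 546, 664 and 617 at 0 min. Its heat arrays did not overlap the control, with a log2 change of 2.98 ± 0.10 at 10 min and 1.67 ± 0.10 at 360 min. Its relative PGM1 was not called at 10 min (0.11 ± 0.08) and was lower at 30 min (-0.96 ± 0.08) and at 360 min (-1.16 ± 0.08). The hexokinase HXK1 rose by 2.83 ± 0.11 at 10 min and stood 1.83 ± 0.11 above 0 min at 360 min, while HXK2, the hexokinase of growth on glucose, was not called at 10 min (0.15 ± 0.07) and was lower at 30 min (-0.66 ± 0.07) and 360 min (-0.25 ± 0.07). UGP1, which makes UDP-glucose, was higher by 1.27 ± 0.06 at 10 min, 1.16 ± 0.06 at 30 min and 0.33 ± 0.06 at 360 min.

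Of 16 other regulators and enzymes, 10 were called higher and 2 lower at 10 min. The numbers were 13 and 1 at 30 min and 8 and 2 at 360 min. The share called in either direction, 12 of 16 at 10 min, was near that of all genes (72.5%, with 80.9% at 30 min and 67.0% at 360 min). Of all genes 33.8%, 40.7% and 31.8% were called higher at 10, 30 and 360 min, each below the share of this list. IGD1, an inhibitor of the debranching enzyme, had 3843, 3487 and 3585 at 10 min and 1061, 929 and 1005 at 360 min of heat, against 175, 197 and 199 at 0 min. That is a log2 change of 3.63 ± 0.12 at 10 min and 1.87 ± 0.12 at 360 min, close to those of GPH1. The glucoamylase SGA1, known from sporulation, rose by 1.89 ± 0.10 at 10 min and 2.67 ± 0.10 at 30 min, and GIP2, which encodes another Glc7-binding protein, by 2.28 ± 0.08 and 1.82 ± 0.08. The mean signal of GIP2 at 0 min was 27.8, below the non-yeast level, so the size of its rise depends on the offset. GLC7 itself had 1755, 1417 and 2055 at 10 min of heat, against 1017, 872 and 989 at 0 min, a change of 0.78 ± 0.15 (adjusted p = 8.47e-05), and at 360 min it was not called (-0.03 ± 0.15). PCL10, a cyclin of the kinase Pho85, was lower at 10 min (-0.69 ± 0.08) and 30 min (-0.56 ± 0.08), and PHO85 at 10 min (-0.26 ± 0.07) and 360 min (-0.45 ± 0.07). The other Pho85 cyclins of the list, named after their values were seen, were higher at 10 min, PCL6 by 1.24 ± 0.09, PCL7 by 0.71 ± 0.09 and PCL8 by 0.74 ± 0.06. At 360 min SNF4, a subunit of the kinase Snf1, was lower (-0.27 ± 0.08) and PSK1, a kinase with a PAS domain, was higher (0.78 ± 0.09).

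**Figure D5:**
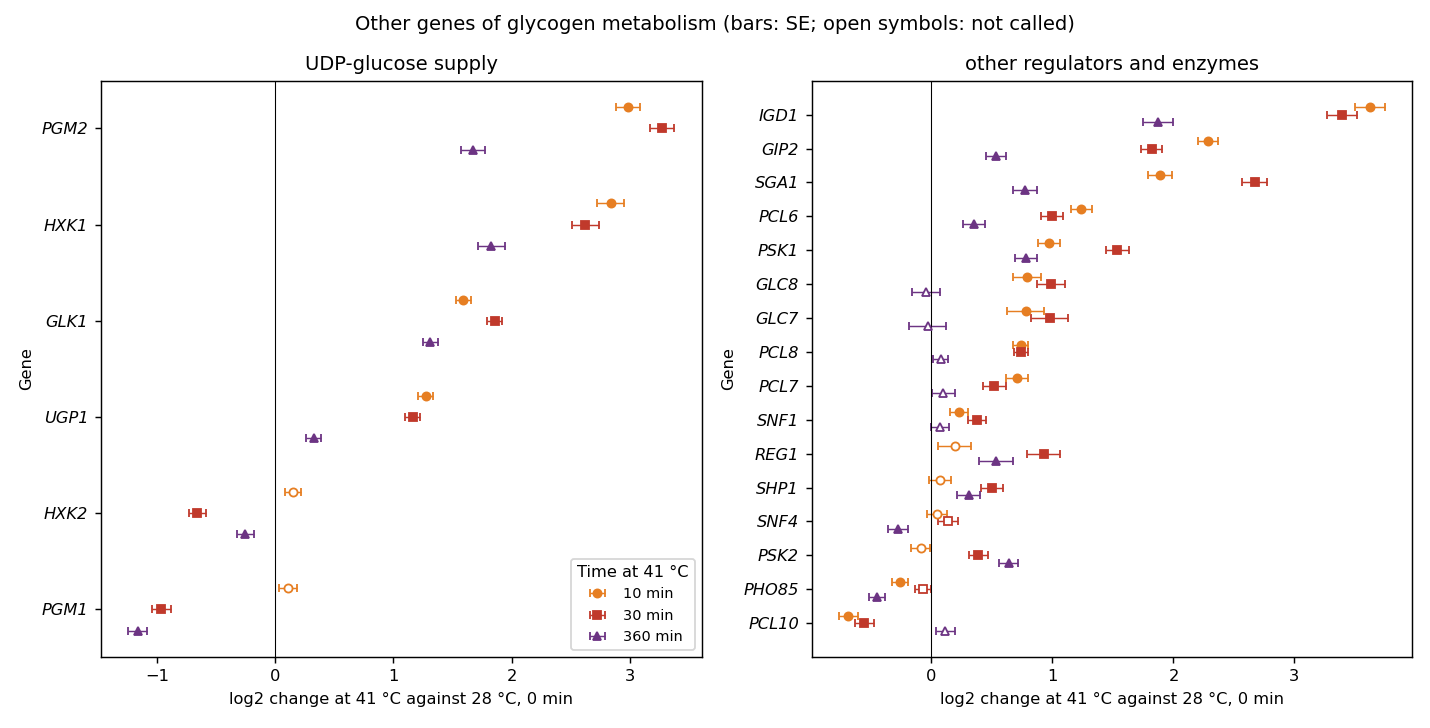
log2 change (x axis) against 28 °C and 0 min of the genes of UDP-glucose supply and of other regulators and enzymes, at 10, 30 and 360 min of 41 °C, with bars for the SE and open symbols for genes not called. PGM2, HXK1 and IGD1 lie between 1.67 and 3.63 at all 3 times, and PGM1 lies below -0.9 at 30 and 360 min.

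The enzymes of trehalose, the other storage sugar of yeast, were called higher in 7 of 7 cases at 10 and at 30 min and in 6 of 7 at 360 min, against 33.8%, 40.7% and 31.8% of all genes at 10, 30 and 360 min. Their median log2 change was 1.96 at 10 min and 1.24 at 360 min, against 2.69 and 0.50 for the 10 glycogen genes. TPS2 (2.68 ± 0.14) and TSL1 (2.33 ± 0.05), of the synthase complex, had the largest changes at 10 min, and NTH1 (1.98 ± 0.08), a trehalase, and TSL1 (1.71 ± 0.05) at 360 min.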

How the data were processed

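RNA from 27 culture samples of 1 yeast strain was measured on one-colour Affymetrix arrays. The authors deposited linear intensities, a value for every probe set on each array, computed by MAS5 according to the submitters' processing notes. Its scaling target is not given in the sources used here, and the lowest value in the table is 20. Detection calls were not used here, and the number of arrays limits the precision. The labels call replicates biological and speak of cultures sampled at several times, but tie no replicate number to a culture across times.

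The members and lists were chosen with earlier results of these data known. Of 9335 probe sets, 6504 name 1 gene and 328 several in the platform annotation, 2443 are unnamed here and 60 are array controls, and the brightest probe set of a gene was used. Array medians differed by a ratio of 1.28, so the 5656 tested genes were quantile normalized. limma 3.58.1 in R 4.3.3 fitted log2(signal + 113.8), the offset being the 10th percentile, with 1 mean per group and an eBayes trend. P values were adjusted by Benjamini-Hochberg over all tested genes within each of 20 comparisons, and called means under 0.05. The fit was checked on simulated data for 10 against 0 min, where 5456 of 5656 genes were unchanged. It called 98 of 100 genes with a log2 change of size 1, 91 of 100 with 0.5 and 15 of the unchanged genes. Far more genes were called in the data, so the check does not cover the normalization under such widespread change. Differences between related genes used an exact permutation test over arrays.

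The text names all members, and of the other lists PGM2, UGP1, GLC7 and up to 2 genes called with the largest change in each direction, at 10, 30 and 360 min against 0 min. Genes of like course are the 3 with the highest Pearson correlation of the 9 group means. Alternatives changed the scaling, offset, filter on dim genes, probe set rule, variance trend, arrays in the fit, replicate block, culture block, background treatment and each array in turn. The files name no genome build for these probe sets, and no sequence or coordinate is given.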

Additional observations from a re-analysis of the deposited data

How the results depend on the processing

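Of 3820 refitted log2 changes of the 10 genes, 3614 kept their direction and side of the threshold, 89 not called either way changed sign, 44 passed the threshold newly, 61 lost it, and 12 called at least once turned round. Of these last, 9 arose with the background level as a term: GLG1 had -0.53, -0.25, -0.53 and -0.60 at 60, 120, 240 and 360 min against 0 min, -0.36 at 120 min against 120 min and -0.62 at 360 min against 240 min of the control, and PIG2 had -0.30 at 360 min against 0 min, -0.027 at 240 min and -0.37 at 360 min against 240 min. In the values as deposited GLG2 had 0.19 and 0.18 at 120 min against 0 and 120 min of the control, and PIG1 had 0.19 for 360 against 30 min. The cause was not tested. For 240 against 0 min in the controls, 1 gene (GSY1) in place of 0 was called with the values as deposited, quantile normalization over all probe sets, an offset of 20, only the arrays compared, culture as a block, the background term and background subtracted. For 30 against 10 min, 3 in place of 5 were called above the 25th percentile, where 8 of the 10 genes were in the fit. For 120 against 60 min it was 1 in place of 2 with an offset of 250, that filter or only the arrays compared, and 1 to 4 without single arrays. For 240 against 120 min it was 1 in place of 2 with quantile normalization over all probe sets, an offset of 250 or that filter, and 1 to 2 without single arrays. For 360 against 240 min it was 1 in place of 0 with only the arrays compared, the replicate block, culture as a block or the background term, and 0 to 1 without single arrays, as also for the difference of heat effects. The replicate numbers pair no arrays by the labels: same-numbered heat arrays deviated together with a median r of 0.13 (-0.41 to 0.76), and 13 of 18 heat and 5 of 9 control arrays correlated best with their own number. The replicate block also called GLG2 at 10 and 240 min against 0 min (9 genes each) and GDB1 for 120 against 60 min (3 genes), and changed no other count of calls among the 10 genes. Over all genes the background term left 2509 calls in place of 3895 at 120 min and 2120 in place of 3787 at 360 min against 0 min, 2304 in place of 3896 against 120 min and 2083 in place of 3720 against 240 min of the control. In the controls, 7 to 14 genes in place of 4 were called for 240 against 0 min under 6 alternatives and 1 or 2 without 1 of 4 arrays, and 4 in place of 0 for 120 against 0 min without replicate 2 of 120 min. With only the arrays compared, 1238 in place of 1922 were called for 120 against 60 min and 549 in place of 1188 for 240 against 120 min, and without single arrays down to 791 for that step, 228 in place of 458 for 360 against 240 min and 386 in place of 601 for the difference of heat effects. In the values as deposited the share of higher among all calls was 58.4% in place of 46.0% at 60 min, 65.1% in place of 47.4% at 120 min, 62.3% in place of 46.0% at 240 min and 64.9% in place of 47.5% at 360 min against 0 min, where the median log2 change of all genes moved by 0.10 to 0.15. It was 62.1% in place of 48.4% at 120 min against 120 min and 59.0% in place of 47.1% at 360 min against 240 min of the control. The difference of heat effects had 28.8% in place of 51.2%. With quantile normalization over all probe sets it was 57.0% in place of 46.0% at 240 min against 0 min. Dim control signals limit the sizes of GAC1, PIG2, GLG1, GSY1 and PIG1, and to a lesser degree that of GPH1.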
